A study of Homo sapiens with 12 samples.

Results

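The miRNA miR-92b is represented in the data by both arms of its hairpin, hsa-miR-92b-3p and hsa-miR-92b-5p (below without the prefix), which are 2 of the 2652 mature miRNAs counted. Both were taken by name, and the miRNA was chosen by its read values: reads of miR-92b-3p were higher in cells given 4-thiouridine (4SU) than in cells without it. Its reads in DMSO and Control are therefore given as a description. Huh7, an established human hepatocellular carcinoma line, was kept in each of 3 conditions for 4 h. There were 4 independent experiments, each with all 3 conditions, and therefore 12 libraries. Control cells received the solvent DMSO and no 4SU. DMSO cells received DMSO with 500 µM 4SU. PlaB cells received pladienolide B, which inhibits the splicing factor SF3B1, with 500 µM 4SU. RNA from all 3 conditions was treated with iodoacetamide. The labels and the study's methods give different concentrations of PlaB, and none is given here.

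Mature miRNAs are cut from hairpins, and the strand loaded into an Argonaute protein finds its targets mainly through the seed near its 5′ end. miR-92b-3p belongs to the miR-25/92 seed family, whose members are encoded at several places in the genome, among them the miR-17-92a cluster, and miR-92b-5p is the strand from the other side of the hairpin. In SLAMseq, cells build 4SU into new RNA in place of uridine, and alkylated 4SU is read as C. A T>C mismatch thus marks a molecule made during labelling, apart from a background of T>C that Control libraries also held. A read without T>C can be an older molecule or a new one that carries no 4SU or whose 4SU was not read as C.

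The sequences below are from RefSeq (GRCh38.p14) and are shown because T>C conversions can arise only at U, and because miR-92b-3p and its most abundant relative, miR-92a-3p, differ at few bases. Capitals in the first 3 sequences mark the seed, bases 2 to 8. miR-92b-5p has a different seed and is in lower case.
miR-92b-3p: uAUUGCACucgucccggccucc
miR-92a-3p: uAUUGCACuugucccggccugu
miR-25-3p: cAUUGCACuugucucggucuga
miR-92b-5p: agggacgggacgcggugcagug

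miR-92b-3p lies at chr1:155195237-155195258 and miR-92b-5p at chr1:155195196-155195217, both on the plus strand of GRCh38. The hairpin MIR92B (chr1:155195177-155195272) starts 181 bases after the start of the lncRNA gene THBS3-AS1, on the same strand, and lies in exon 1 in 18 of the 19 GENCODE transcripts that span it. miR-92b-3p has 6 U, at positions 1, 3, 4, 9, 12 and 20 counted from 1 at the 5′ end, and miR-92b-5p has 2. miR-92a-3p has 8 U and is made from identical copies on chromosomes 13 (MIR92A1) and X (MIR92A2). Capitals in the next pair of sequences mark the positions at which these miRNAs differ.
miR-92a-3p: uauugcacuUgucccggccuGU
miR-92b-3p: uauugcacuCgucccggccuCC

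The differences were U10C, G21C and U22C, with the base of miR-92a-3p first and that of miR-92b-3p last. Within the first 20 bases 1 position differed, and there miR-92a-3p has U and miR-92b-3p has the base as which an alkylated 4SU is read.

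Library totals were 1667668 to 2393680 reads in Control, 1968612 to 3880241 in DMSO and 1522210 to 1979696 in PlaB. DMSO replicates 1 and 2 each combine 3 sequencing runs, and the fitted values of miR-92b-3p that use DMSO are also given without them. The hepatocyte miRNA miR-122-5p had 55353 to 105331 CPM (reads scaled to 1000000 per library) in the 12 libraries, and the 4 hepatocyte markers together 100894 to 136307 CPM in Control, 114769 to 153879 in DMSO and 111071 to 147124 in PlaB. The erythroid, leukocyte and muscle markers summed to at most 4.43, 4.04 and 10.2 CPM in any library. The neural markers summed to at most 54.9 CPM, nearly all of it miR-9-5p. Their part in the results below was not tested.

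Reads of hsa-miR-92b-3p were higher in DMSO than in Control, by 1.57-fold on mean CPM, and in PlaB lay close to Control. The 4 Control libraries, replicates 1 to 4, had 538, 457, 527 and 477 CPM of miR-92b-3p. The DMSO libraries had 889, 683, 761 and 810 CPM, and the PlaB libraries 577, 490, 551 and 540 CPM. Every DMSO library was above every Control and every PlaB library, whereas Control and PlaB overlapped. Among the 537 miRNAs that passed the read filter, 4.28% had all DMSO libraries above all Control libraries and 2.79% had all PlaB libraries below all DMSO libraries. Mean values (SD, n = 4) were 500 ± 38.9 CPM for Control, 786 ± 86.3 for DMSO and 540 ± 36.4 for PlaB. These rest on 878 to 3450 reads of miR-92b-3p per library. In bulk RNA, a change in the number of cells that make a miRNA and a change in its amount per cell cannot be told apart.

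On the log2 scale of the edgeR fit, miR-92b-3p reads were 0.67 (SE 0.11) higher in DMSO than in Control and 0.55 (SE 0.10) lower in PlaB than in DMSO. PlaB was 0.12 (SE 0.10) above Control, about the size of its standard error. No p is given for these values because the reads in DMSO and Control chose the miRNA, and PlaB was compared with those same libraries. Over all 537 miRNAs, edgeR called 0.931% higher in DMSO than in Control and 5.03% lower, and 0.372% lower in PlaB than in DMSO. Over the tested miRNAs the median log2 change was 0.04 with 4SU and -0.05 from DMSO to PlaB. Without DMSO replicates 1 and 2, miR-92b-3p was 0.70 (SE 0.14) higher in DMSO than in Control, and the value for PlaB against DMSO was -0.56 (SE 0.14).

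The rise from Control to DMSO was present in each of the 4 experiments, at 351, 226, 234 and 333 CPM. By fitted read change, miR-92b-3p was number 42 of 537 from the top, and the first of the 158 miRNAs above 100 CPM in all 12 libraries. Its neighbours in the full order were sparse miRNAs. miR-3145-3p, next above it, had 6.33 ± 3.51 CPM in Control and 10.1 ± 5.38 in DMSO, and miR-6511b-3p, next below it, had 3.48 ± 2.91 and 5.94 ± 4.49 (SD, n = 4). Both neighbours overlapped between conditions within these spreads.

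To ask how far reads that carry a label account for the change, miR-92b-3p reads with and without T>C were separated. Control held 0, 1, 2 and 0 reads with T>C in replicates 1 to 4. DMSO held 595, 331, 261 and 285 such reads, and PlaB 56, 63, 55 and 55. Reads of miR-92b-3p with T>C were therefore nearly absent without 4SU, and they formed 16.7% ± 1.34 of its DMSO reads and 6.11% ± 0.530 of its PlaB reads (SD, n = 4). Scaled to library size they came to 132 ± 23.0 CPM in DMSO and 33.0 ± 3.46 CPM in PlaB, without overlap, as for 15.8% of the 537 miRNAs. No p is given for this split of the reads that chose the miRNA.

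Of the mean difference of 286 CPM between DMSO and Control, reads with T>C made up 132 CPM, or 46.0%, and reads without T>C 154 CPM, or 54.0%. Within experiments, the share with T>C was 43.7%, 44.5%, 54.5% and 43.5%. More of the rise was thus in reads without T>C in 3 of 4 experiments. Without DMSO replicates 1 and 2 the share with T>C was 47.7%. From DMSO to PlaB miR-92b-3p fell by 246 CPM, of which reads with T>C made up 40.2%. From Control to PlaB it differed by 39.6 CPM, of which 32.6 CPM had T>C and 7.01 CPM did not.

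**Figure D1:**
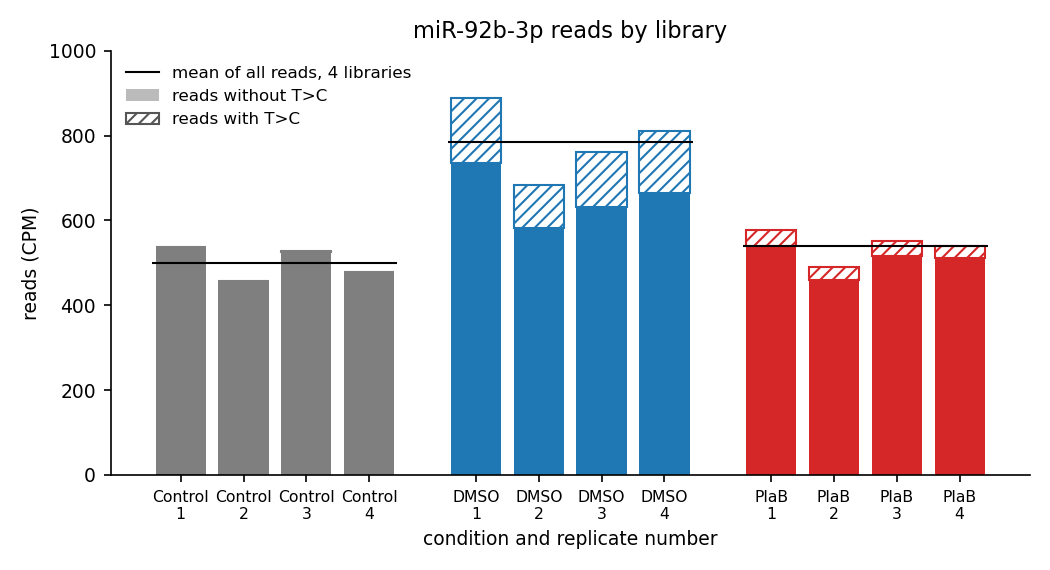
miR-92b-3p reads in each of the 12 libraries, in CPM on the y axis, split into reads without T>C (solid) and with T>C (hatched), with a line at the mean of all reads per condition. Solid bars reach 582 to 736 CPM in DMSO and 457 to 538 CPM in Control, so the DMSO libraries are higher also in reads without T>C.

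Reads of miR-92b-3p without T>C alone were 538, 457, 526 and 477 CPM in Control replicates 1 to 4. In DMSO they were 736, 582, 633 and 665 CPM, and in PlaB 541, 459, 516 and 511 CPM. All 4 DMSO libraries were again above all Control and PlaB libraries, which was so for 4.1% of the 537 miRNAs against Control and 2.05% against PlaB. The fitted log2 difference was 0.40 (SE 0.10) between DMSO and Control and -0.38 (SE 0.10) between PlaB and DMSO. Without DMSO replicates 1 and 2 these were 0.42 (SE 0.14) and -0.37 (SE 0.14). edgeR called 0.931% of the 537 miRNAs higher in DMSO than in Control in reads without T>C, and none (0.0%) lower in PlaB than in DMSO, with 23 miRNAs at an unadjusted p under 0.05 in either direction and 2 called in either direction by DESeq2.

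Conversions were counted next against the T positions covered by reads. Summed over its libraries, Control had 3 conversions at 24350 covered T positions of miR-92b-3p. DMSO had 1515 at 51466, a T>C rate of 2.94%, and PlaB 232 at 22239, or 1.04%. From these counts the rate was 239 times (95% interval 81.6 to 1160) as high in DMSO and 84.7 times (28.6 to 414) as high in PlaB as in Control. The intervals are exact and cover counting error only. They leave out the spread between libraries, and PCR copies are not independent molecules. No test is read from them, because reads in DMSO and Control chose the miRNA.

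By library, the T>C rate of miR-92b-3p was 3.05%, 2.57%, 3.08% and 3.12% in DMSO and 1.13%, 1.10%, 1.06% and 0.900% in PlaB, for replicates 1 to 4. In Control it was 0, 0.0153%, 0.0352% and 0. The 3 conditions did not overlap. DMSO was wholly above Control for 62.2% of the 238 miRNAs with enough conversions to be tested, and edgeR called 81.1% of them higher. All PlaB libraries were below all DMSO libraries for 38.2% of these, and above all Control libraries for 32.8%. Mean rates were 1.05% ± 0.103 with PlaB and 2.95% ± 0.259 with DMSO (SD, n = 4). No p is given here or for the fit below, because reads in the DMSO and Control libraries chose the miRNA.

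In the edgeR fit of conversions with covered T positions as offset, the log2 value of miR-92b-3p in PlaB against DMSO was -1.49 (SE 0.28). The rate fell in 4 of 4 experiments. The same direction was called for 37.0% of the 238 miRNAs, whose median log2 change was -1.23. Without DMSO replicates 1 and 2 the value for miR-92b-3p was -1.56. Against Control, PlaB was higher by 6.24 (SE 0.49), a size that depends on the 3 Control conversions. Of the 238 miRNAs, 53.4% were called in that direction. After subtraction of the Control rate, the PlaB rate of miR-92b-3p was 0.352 of the DMSO rate. This was number 80 from the lowest of 171 miRNAs, whose median was 0.381.

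In DMSO, miR-92b-3p was among the miRNAs with the most conversions per T, as number 22 of 238 and number 4 of the 158 miRNAs above 100 CPM, where the medians were 0.328% and 0.183%. Its neighbours in the order of 238 were miR-6724-5p at 2.99% ± 2.46 and miR-106a-5p at 2.56% ± 2.36 (SD, n = 4). Neither differed from miR-92b-3p beyond its own spread. A converted miR-92b-3p read usually held a single conversion, at 1.03 ± 0.0228 conversions per read with T>C in DMSO libraries and 1.01 ± 0.0268 in those of PlaB.

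The number of T positions covered per read of miR-92b-3p also differed between conditions. Of 6 possible, the mean covered per read (SD, n = 4) was 5.96 ± 0.00808 for Control, 5.83 ± 0.0114 for DMSO and 5.91 ± 0.0147 for PlaB. The T positions not covered thus rose from 0.733% in Control to 2.90% in DMSO, with 1.42% in PlaB. The difference of -0.13 covered T per read between DMSO and Control was number 3 from the lowest of the 158 miRNAs above 100 CPM, whose median was -0.0027. In DMSO replicates 3 and 4 alone it was -0.14. For miR-92a-3p, with 8 U, the difference was -0.0059. The part of this in the read change was not tested.

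**Figure D2:**
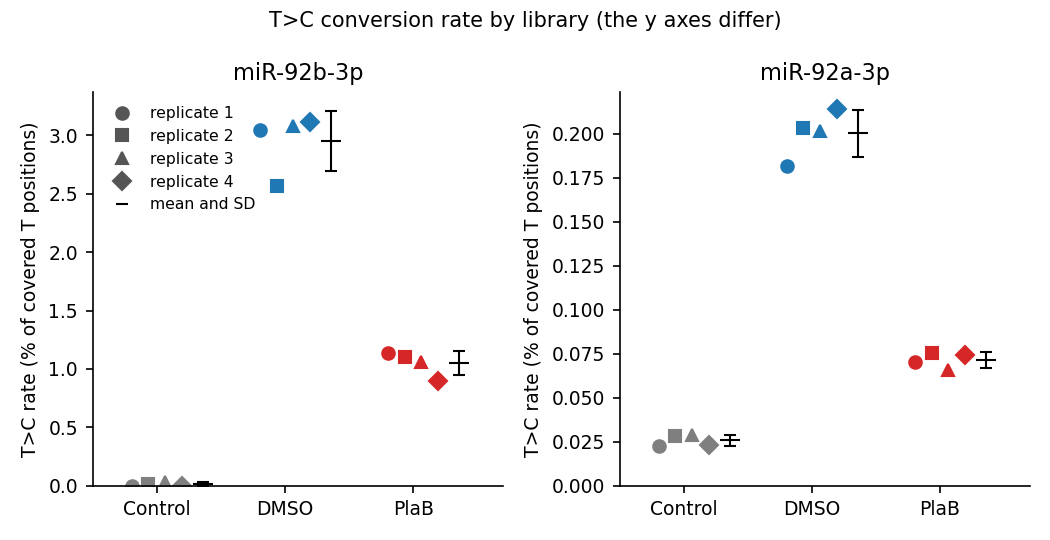
T>C rate, in percent of covered T positions, of miR-92b-3p (left) and miR-92a-3p (right) in each library, with the mean and SD of 4 libraries beside the points and a different y axis in each panel. DMSO lies above PlaB and PlaB above Control for both miRNAs, with means of 2.95% and 0.200% in DMSO and 1.05% and 0.0715% in PlaB.

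hsa-miR-92b-5p, the other arm, was scarce and showed no such rise. Both arms are 22 bases long, and in Control the mean was 5.52 ± 2.41 CPM for miR-92b-5p against 500 CPM for miR-92b-3p. Replicates 1 to 4 had 7, 16, 15 and 7 reads of miR-92b-5p in Control, 13, 11, 17 and 7 in DMSO, and 8, 2, 14 and 3 in PlaB. As CPM these were 2.93 to 8.28, 3.35 to 8.37 and 1.01 to 8.78, so all 3 conditions overlapped.

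The fitted log2 difference of miR-92b-5p reads between DMSO and Control was -0.25 (SE 0.62). For PlaB it was -0.19 (SE 0.65, edgeR adjusted p = 0.992) against DMSO and -0.44 (SE 0.65, edgeR adjusted p = 0.812) against Control. Exact permutation tests on CPM gave two-sided p = 0.771 and p = 0.543. With so few reads, a difference of the size seen for miR-92b-3p was not detectable. Conversions on miR-92b-5p numbered 2 at 92 covered T positions in DMSO, 0 at 90 in Control and 0 at 54 in PlaB. A count of 0 there allows a rate of up to 3.33% in Control and 5.56% in PlaB, so labelling of this arm could not be compared with that of miR-92b-3p.

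The seed AUUGCAC was shared by 6 miRNAs in the tables, of which miR-92b-3p, miR-92a-3p, miR-25-3p and miR-32-5p passed the read filter. miR-363-3p averaged 2.85 CPM in Control, and miR-367-3p had none in any condition. The others of the family did not rise with 4SU past the test, in a fit that did not pair libraries by experiment. miR-92a-3p had 135796 CPM in Control and 141676 in DMSO (log2 difference 0.07, SE 0.11, edgeR adjusted p = 0.865). miR-25-3p had 15852 and 13731 CPM (-0.19, SE 0.11, adjusted p = 0.482), and miR-32-5p had 220 and 301 CPM (0.47, SE 0.19, adjusted p = 0.218). All of these are 22 bases long, and miR-92b-3p, at 500 CPM in Control, lay far below miR-92a-3p and miR-25-3p in level.

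miR-92b-3p and miR-92a-3p differed in their level of conversions, and the comparison of their decrease with PlaB depended on the Control background, which was a larger part of the rate of miR-92a-3p. The T>C rate of miR-92a-3p was 0.0257% ± 0.00318 with Control, 0.200% ± 0.0135 with DMSO and 0.0715% ± 0.00448 with PlaB (SD, n = 4), and its conversions were lower in PlaB by a log2 value of -1.48 (SE 0.16, edgeR adjusted p = 4.39e-13). The log2 ratio of PlaB to DMSO rates of miR-92b-3p minus that of miR-92a-3p was taken within experiments. With no subtraction it was -0.01 ± 0.20 (SD, n = 4) and positive in 2 of 4 experiments. With the Control rate of the same experiment subtracted, a setting chosen after seeing the data, it was 0.43 ± 0.27 (SD, n = 4). It was then positive in 4 of 4 experiments, so the decrease of miR-92b-3p was the smaller one in each. No p is given, because reads in the DMSO and Control libraries chose miR-92b-3p, and neither value is read as a difference between these miRNAs. On condition means with the Control rate subtracted, PlaB held 0.352 of the DMSO rate for miR-92b-3p and 0.263 for miR-92a-3p. Conversions on miR-25-3p were not called lower in PlaB (-0.19, SE 0.19, edgeR adjusted p = 0.435).

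Among the other arms of the relatives, miR-92a-1-5p and miR-25-5p had T>C rates in DMSO above that of miR-92b-3p, and none of the arms with reads had a higher mean in DMSO than in Control. miR-92a-1-5p, from the MIR92A1 hairpin, had a T>C rate of 5.78% ± 0.365 in DMSO, and its reads fell from 628 ± 120 CPM in Control to 157 ± 29.3 CPM in DMSO (SD, n = 4; log2 difference -1.98, edgeR adjusted p = 4.24e-05). miR-25-5p had a rate of 3.43% ± 0.457 and 472 ± 122 CPM in Control against 292 ± 73.9 in DMSO (SD, n = 4; -0.68, edgeR adjusted p = 0.0992). After subtraction of the Control rate, PlaB held 0.310 of the DMSO rate for miR-92a-1-5p and 1.03 for miR-25-5p. The other arm of miR-32-5p, miR-32-3p, which was added after its values were seen, had a lower rate of 0.274% ± 0.208, and its reads fell from 346 ± 61.5 CPM in Control to 222 ± 15.4 CPM in DMSO (SD, n = 4; -0.62, edgeR adjusted p = 0.0247). miR-92a-2-5p, miR-363-5p and miR-367-5p had no reads.

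**Figure D3:**
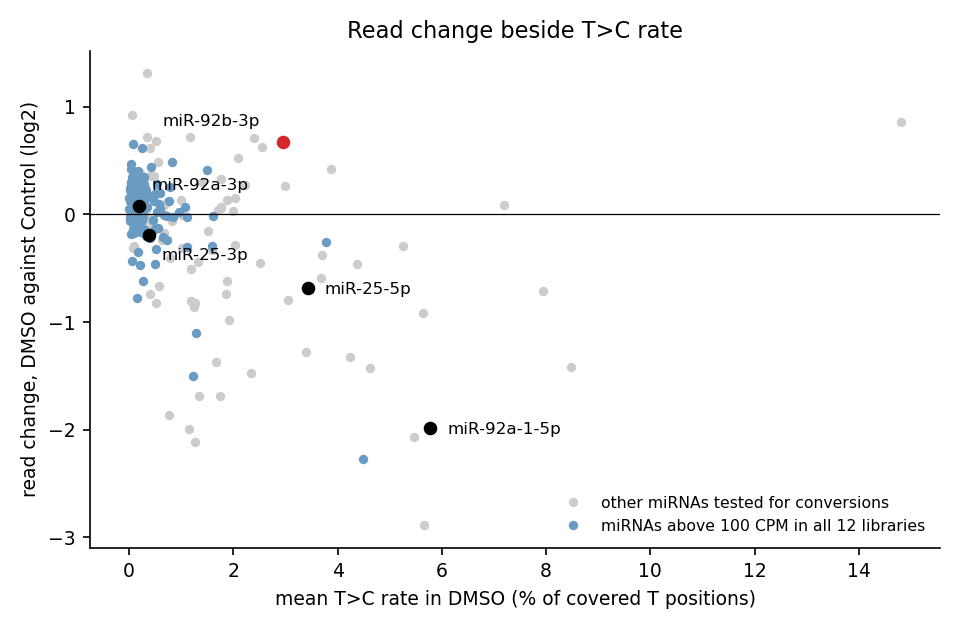
Log2 read change of DMSO against Control (y axis) beside the mean T>C rate in DMSO in percent (x axis) for the 238 miRNAs tested for conversions, with the 147 of them above 100 CPM in all libraries in blue and miR-92b-3p in red. miR-92b-3p sits at 0.67 and 2.95%, above zero, whereas miR-25-5p and miR-92a-1-5p, at 3.43% and 5.78%, sit below zero.

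Because miR-92a-3p becomes identical to miR-92b-3p over the first 20 bases if its position 10 is read as C, the conversions on miR-92a-3p are set beside the rise of miR-92b-3p. Summed over its 8 T positions, miR-92a-3p had 25275 conversions in the DMSO libraries. Per T position and 1000000 library reads the mean (SD, n = 4) was 34.5 ± 4.84 for Control, 279 ± 34.4 for DMSO and 95.4 ± 9.06 for PlaB. DMSO minus Control was 286, 225, 203 and 266 in experiments 1 to 4, next to a rise of 351, 226, 234 and 333 CPM in all reads of miR-92b-3p and of 197, 125, 107 and 189 CPM in its reads without T>C. Over the first 20 bases, a miR-92a-3p read with position 10 as its only conversion would look like miR-92b-3p without T>C. A read that reaches bases 21 and 22 still differs from miR-92b-3p there. Reads counted on miR-92a-3p covered a mean of 7.94 of its 8 T positions in DMSO, and the last of these positions is base 22. The conversions given are those counted on miR-92a-3p in reads of any length, divided by its 8 T positions. Reads counted on miR-92b-3p instead are missing from them, so they do not measure how many such reads there were. PlaB minus Control was 69.6, 56.2, 45.3 and 72.6, next to 39.0, 33.0, 23.8 and 62.6 CPM for all reads of miR-92b-3p and 2.18, 1.62, -9.62 and 33.9 CPM for those without T>C. In PlaB the reads of miR-92b-3p without T>C thus stayed near Control in 3 of 4 experiments. The tables give no conversions by position, so reads of miR-92a-3p changed at position 10 were not counted, and their part in the rise was not tested.

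**Figure D4:**
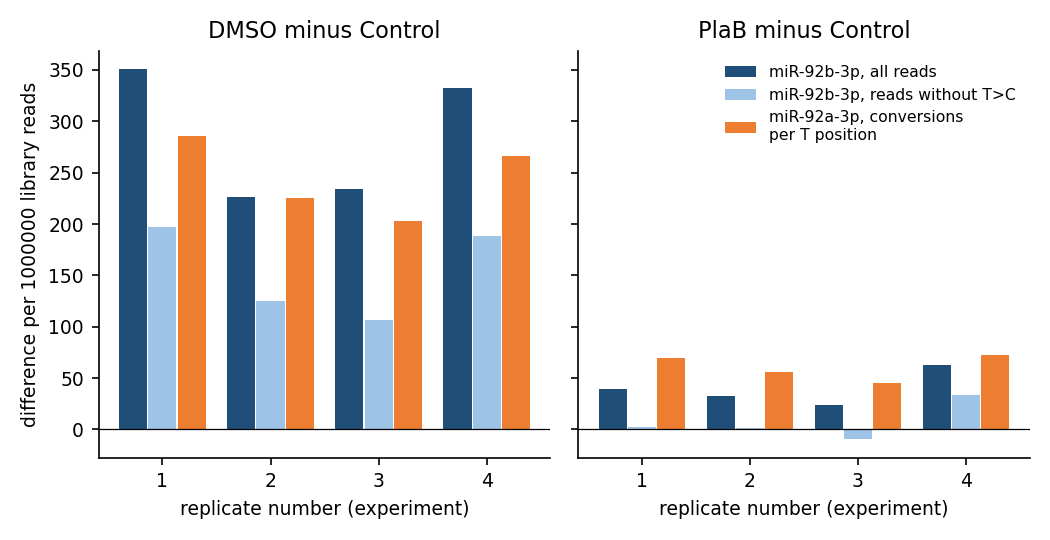
Differences from Control per 1000000 library reads in each of the 4 experiments, for all miR-92b-3p reads, miR-92b-3p reads without T>C, and T>C conversions of miR-92a-3p per T position, in DMSO (left) and PlaB (right). In DMSO all reads run from 226 to 351, reads without T>C from 107 to 197 and conversions from 203 to 286, and in PlaB from 23.8 to 62.6, -9.62 to 33.9 and 45.3 to 72.6.

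Reads that mapped to several places were rare for miR-92b-3p, with 4 in Control, 11 in DMSO and 3 in PlaB over all libraries, against 8829 reads in DMSO. For miR-92a-3p nearly all were of that kind, 1585980 of 1626920 in DMSO, as its 2 copies are identical.

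Other pairs with the same relation were few. By mature sequences, which matched 481 of the 537 tested miRNAs, 3 miRNAs besides miR-92b-3p differed from a more abundant miRNA in the first 18 bases by a single T-to-C change. None was called higher in DMSO than in Control by edgeR or DESeq2, in fits that did not pair libraries by experiment. By edgeR, 2 had an unadjusted p under 0.05, and all 3 had positive values, with a median log2 difference of 0.41. miR-30a-5p differs from miR-30e-5p by U13C and had 523 ± 87.9 CPM in Control and 684 ± 107 in DMSO (SD, n = 4; 0.41, edgeR adjusted p = 0.280). Conversions on miR-30e-5p came to 4.35 per T position and 1000000 reads in DMSO, against 279 on miR-92a-3p. miR-501-3p (U9C, beside miR-502-3p) was at 0.13 and miR-548ae-3p (U1C, beside miR-548x-3p) at 1.24, on a mean of 11.9 CPM in Control.

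For pairs with the opposite change, where the scarcer miRNA has T, the median of 5 was 0.37 with none called, and for 24 pairs with any other single change it was 0.23 with none called higher and 1 lower by edgeR and 1 higher by DESeq2. miR-92b-3p, at 0.67, was above the median of each class, which is a description only, because this rise chose it. These classes are small, and nothing particular to T-to-C pairs is read from them.

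Across the 12 libraries, the 5 miRNAs above 100 CPM whose log2 CPM followed miR-92b-3p most closely were miR-362-5p (Pearson r = 0.78), miR-130a-3p (0.78), miR-15a-5p (0.73), miR-16-5p (0.69) and miR-200c-3p (0.65). These values describe libraries that share conditions and experiments. Since likeness to miR-92b-3p chose them, their differences between DMSO and Control are given with no test, and were 0.17 to 0.49 on the log2 scale, the highest for miR-130a-3p, with 879 ± 92.8 and 1218 ± 80.4 CPM in Control and DMSO (SD, n = 4). Their T>C rates in DMSO were 0.166% to 0.831%, all below the 2.95% of miR-92b-3p.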

How the data were processed

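Small RNA of Huh7 cells was measured by SLAMseq in 12 libraries (3 conditions, 4 experiments). The authors trimmed reads with Trim Galore and ran SLAM-DUNK (nf-core SLAMseq workflow) for mapping and counting against GRCh38 and mature coordinates of miRBase, with SNP masking and no filter on mapping quality, so reads mapping to several places were kept. The deposited counts per miRNA are all reads, multi-mapping reads, reads with T>C, covered T positions and T>C conversions. The deposited CPM values equal reads scaled to 1000000 reads counted on miRNAs, and the deposited T>C conversion rate, a fraction, equals conversions over covered T positions, both checked in all libraries. A deposited T content per miRNA gives the number of T positions.

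Read counts, reads without T>C and conversions (with log covered T positions as offset) were fitted with edgeR 4.0.16 (glmQLFit, glmQLFTest, TMM factors, 1 fit of 3 conditions, Benjamini-Hochberg adjustment, threshold 0.05). Reads were tested for 537 miRNAs passing filterByExpr, conversions for 238 of them with at least 10 conversions and coverage in all 12 libraries. Libraries were grouped by their labels. The experiments were independent cultures. Same-numbered libraries come from 1 experiment by the methods, and their log2 CPM deviations from the condition means correlated in every pair over 158 miRNAs (median r 0.56, lowest 0.21). T>C rate deviations did not (median 0.0030). No 2 of the 66 library pairs were identical.

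In simulated data for DMSO against Control reads (516 miRNAs tested), 66.1% of 189 miRNAs changed 2-fold were recovered with 4 false calls. For PlaB against DMSO conversions (220 tested), 35.3% of 51 changed 4-fold were recovered with 2 false calls.

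The members and all lists were chosen with earlier results of these data known. Named are both members, the miRNAs of their seed, the arms miR-92a-1-5p, miR-92a-2-5p and miR-25-5p (miR-32-3p, miR-363-5p and miR-367-5p were added later), the 5 closest in log2 CPM, the neighbours in 2 orders, and sequence neighbours over 18 bases. Depth is 1522210 to 3880241 reads per library. A count of 0 allows 3 counts. Alternatives tried were RLE factors, DESeq2 1.42.0, no low-count filter, a minimum of 100 CPM, the replicate block, only the 8 libraries compared, each library left out, DMSO replicates 1 and 2 left out, T>C reads per read and a minimum of 30 conversions.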

Additional observations from a re-analysis of the deposited data

Results flagged for a closer look

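A library far from the others of its condition was found in 5 of 39 groups of 4 libraries examined, where chance gives about 1 in 20. The T>C rate of miR-92b-3p in DMSO replicate 2 was 2.57%, below the 3.05% to 3.12% of the other DMSO libraries, and this library combines several sequencing runs, as does DMSO replicate 1 at 3.05%. Reads of miR-92b-5p in DMSO replicate 3 were 8.37 CPM against 3.35 to 3.56 in the others, and its reads without T>C 7.88 against 2.83 to 3.56 CPM, on 17 reads. The T>C rate of miR-92b-5p in DMSO replicate 1 was 8.33% against 0 in the others, on 2 conversions. Reads of miR-92a-3p with T>C in Control replicate 3 were 335 CPM against 255 to 260 CPM in the other Control libraries.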

How the results depend on the processing

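The decrease of miR-92b-3p conversions from DMSO to PlaB kept its direction in 19 of 19 alternatives (log2 -1.56 to -1.43), as did the difference between PlaB and Control (5.82 to 7.26). The share of the read rise in reads with T>C ran from 44.0% to 49.5%, including a mean of the within-experiment shares (46.6%, a replicate block chosen after seeing the data). The PlaB to DMSO ratio of miR-92b-3p minus that of miR-92a-3p moved from -0.01 to 0.43 (log2) when the Control rate was subtracted, also chosen after seeing the data. Control made up more of the rate of miR-92a-3p (0.0257% of 0.0715% in PlaB) than of miR-92b-3p (0.0126% of 1.05%). miR-92b-3p reads in DMSO against Control ran from 0.59 to 0.71, and reads without T>C from 0.33 to 0.44.

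With 1 library left out, miR-92b-3p reads in PlaB against DMSO ranged from -0.57 to -0.45 (without DMSO replicate 1), in PlaB against Control from 0.093 to 0.17 (without Control replicate 1, and likewise without PlaB replicate 2), and reads without T>C in PlaB against DMSO from -0.40 to -0.28 (without DMSO replicate 1). miR-92b-5p reads in PlaB against DMSO ranged from -0.85 to 0.23 and turned positive without DMSO replicate 3 (0.23), PlaB replicate 2 (0.15) or PlaB replicate 4 (0.12), with adjusted p of at least 0.913 throughout; 2 alternatives, the 100 CPM minimum and the fit of only 8 libraries, gave no value for miR-92b-5p. The cause was not tested. The count of T-to-C neighbours called higher was 0 under both of its alternatives.

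With the replicate block, which pairs libraries of 1 experiment, miR-92b-3p conversions in PlaB against DMSO were -1.50 and its reads 0.67 in DMSO against Control. The block changed no call on miR-92b-5p. It moved the miRNAs called in reads of DMSO against Control from 32 to 60, in reads without T>C from 39 to 62, and in reads of PlaB against DMSO from 2 to 6. With at least 100 CPM, which leaves 158 miRNAs for reads and 147 for conversions, the first of these counts was 8, the second 9 and the third 1. The count was then 6 in place of 36 for reads of PlaB against Control, 83 in place of 128 for conversions of PlaB against Control, and 127 in place of 194 for conversions of DMSO against Control. Without DMSO replicates 1 and 2, calls in reads of DMSO against Control were 17, in reads without T>C 19, in reads of PlaB against DMSO 0 and in conversions of PlaB against DMSO 52 in place of 89. Leaving out 1 library gave as few as 15 for reads in DMSO against Control (without DMSO replicate 3; 21, 20 and 19 without Control replicate 3, DMSO replicate 2 and DMSO replicate 4) and 23 for reads without T>C (without DMSO replicate 2 or 3). For reads of PlaB against DMSO it gave 0 or 1, RLE factors and the fit of only the 8 libraries gave 0, and no low-count filter and DESeq2 gave 5 each. Reads without T>C in PlaB against DMSO had 0 calls, 1 with no low-count filter, 1 with the block and 2 with DESeq2. Low depth limits miR-92b-5p (2 to 17 reads per library) and the Control conversions of miR-92b-3p.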
